A study of Mus musculus with 16 samples.

Results

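The microglia and myeloid genes described here are 29 genes taken by their symbols from the 17097 genes with values, and all 29 had values in each of the 16 libraries. They span the receptors, surface proteins, complement subunits and lysosomal proteins by which microglia and other myeloid cells are usually recognised. A joining chain of secreted antibodies, Igj (Jchain in current annotation), stands among them, although it is a product of plasma cells. Striata of male wild-type mice (C57BL/6J, 63 days old, per the labels) were collected 2 h after an injection of the designer drug clozapine N-oxide (CNO, 1 mg/kg) or of vehicle. Each mouse gave RNA from immunoprecipitated ribosomes (IP), which carried a hemagglutinin tag and were to come from astrocytes, and from the cleared whole lysate (input). There were thus 4 groups of 4 libraries: IP after CNO (CNO IP), IP after vehicle (vehicle IP), and the 2 matching input groups. Replicates carry the numbers 2 to 5, and values below are given in that order. According to its title, the series is about astrocytes whose Gi pathway was switched on. The labels name neither the designer receptor nor the promoter, virus or strain that carried the receptor and the tag, and no group is labelled as CNO without a receptor. The series text speaks of 4 mice and the titles carry 8 mouse codes, so 8 mice were assumed. If the libraries of a group came from shared mice, p-values reflect library-to-library spread alone.

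IP libraries held 52.1 to 61.5 M reads assigned to genes and input libraries 32.8 to 40.3 M. All input libraries carry the label striatal astrocyte as well, although they are whole tissue. Of 22 astrocyte markers, 22 were higher in IP than in input in CNO mice (median log2 ratio 2.82) and 22 in vehicle mice (2.80), and all 17 medium spiny neuron markers were lower in both injections (median -1.43 in CNO mice and -1.55 in vehicle mice). Not all other cell types were lower in IP. Of 15 oligodendrocyte markers, 14 were higher in CNO mice (median 0.82) and 11 in vehicle mice (0.76), and 0 were lower. Of all genes tested, 40.0% were higher in CNO mice and 37.7% in vehicle mice. Libraries of the vehicle mice with replicate numbers 3 and 5 stood apart for immune genes. Summed over 33 interferon and MHC genes, CNO input held 2090, 3630, 3510 and 3030 CPM (the read count scaled to the size of the library) and vehicle input 3210, 1110, 2850 and 5650 CPM in replicates 2 to 5. Many of these 33 genes were higher in IP than in input, 25 in CNO mice and 18 in vehicle mice. Lower in IP were 5 in CNO mice and 1 in vehicle mice. Values without these 2 mice are given where they bear on a result. In vehicle input, mouse 3 was the lowest library for 28 of 29 members and mouse 5 the highest for 28 of 29. Fits without them hold fewer vehicle mice and understate the spread between mice, so their p-values are no independent support.

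Microglia are the resident macrophages of the brain. They depend on signals through the receptor Csf1r, survey the tissue with processes guided by purine receptors such as P2ry12, and receive a neuronal signal through the chemokine receptor Cx3cr1. Trem2 and the Fc receptors detect lipids, debris and antibodies and signal through the small adaptor proteins Tyrobp and Fcer1g. C1q, which starts the classical complement cascade and takes part in the tagging of synapses, is made in the brain mainly by microglia. Lysosomal proteins such as Cd68 and cathepsin S (Ctss) digest what these cells take up. Many myeloid promoters bind the transcription factor Spi1 (PU.1), whose binding sites centre on the purine-rich letters GAGGAA.

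Promoter sequences are shown for 4 members: Ctss, which had the highest level per length; C1qb, of the complement group; Trem2, the lipid receptor; and Cd68, the member that differed between CNO and vehicle in IP. Each is the 250 bases before the gene's start in RefSeq, mouse build GRCm38.p6, written 5′ to 3′ on the gene's strand. Capitals mark GAGGAA or its reverse complement TTCCTC, which all 4 hold.
Ctss promoter (chr3:95526536-95526785, plus strand): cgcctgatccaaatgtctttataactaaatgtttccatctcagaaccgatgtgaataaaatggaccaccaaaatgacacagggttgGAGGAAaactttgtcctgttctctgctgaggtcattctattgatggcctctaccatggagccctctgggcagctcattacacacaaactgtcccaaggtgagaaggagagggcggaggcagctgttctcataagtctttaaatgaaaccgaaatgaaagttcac
C1qb promoter (chr4:136886201-136886450, minus strand): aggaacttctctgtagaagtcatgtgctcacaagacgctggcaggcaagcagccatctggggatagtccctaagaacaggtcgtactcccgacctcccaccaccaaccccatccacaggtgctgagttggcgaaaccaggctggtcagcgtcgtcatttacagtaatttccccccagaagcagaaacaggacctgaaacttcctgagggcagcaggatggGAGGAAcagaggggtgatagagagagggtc
Trem2 promoter (chr17:48346151-48346400, plus strand): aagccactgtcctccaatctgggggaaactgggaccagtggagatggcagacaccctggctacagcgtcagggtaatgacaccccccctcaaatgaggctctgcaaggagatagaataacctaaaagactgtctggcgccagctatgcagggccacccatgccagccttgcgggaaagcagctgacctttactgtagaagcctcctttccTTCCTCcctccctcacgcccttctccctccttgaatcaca
Cd68 promoter (chr11:69666171-69666420, minus strand): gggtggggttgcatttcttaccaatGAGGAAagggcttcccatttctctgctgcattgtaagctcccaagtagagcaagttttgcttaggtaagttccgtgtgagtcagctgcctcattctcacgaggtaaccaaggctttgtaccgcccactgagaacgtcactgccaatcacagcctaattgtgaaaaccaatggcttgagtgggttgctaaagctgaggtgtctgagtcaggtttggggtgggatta
The search covered both strands of 26 such windows, which matched 22 of the 29 members. GAGGAA or TTCCTC stood in 16 of the 26 windows (61.5%), belonging to 14 members, against 23.3% of all 32851 mouse windows of that length. The longer GAGGAAGT or ACTTCCTC, which contains the shorter letters, stood in 3 windows (11.5%), of C1qc and Ly6c2, against 2.44% of all windows. TATAAA or TTTATA stood in 5 windows (19.2%) against 12.4% of all. These are matches of letters, not sites shown to be bound.

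In whole striatum the module was led by lysosomal and complement genes. Levels were compared between genes per length, as CPM per kilobase of annotated exon. Ctss stood highest with 266 ± 55.4 in CNO input and 277 ± 136 in vehicle input (SD, n = 4 each). C1qa followed with 200 ± 41.7 in CNO input and 207 ± 99.6 in vehicle input, and C1qb with 135 ± 26.3 in CNO input and 136 ± 62.4 in vehicle input. Igj came next, with 99.7 ± 27.8 CPM per kilobase in CNO input and 122 ± 103 in vehicle input. From Ctss to Igj, neighbouring means in vehicle input differed by less than the SD of the higher gene of the pair. This SD is between mice, and the order of the genes within each mouse was not tested. The lowest was Ptprc, the leukocyte phosphatase CD45, with 1.68 ± 0.349 in CNO input and 1.84 ± 1.11 CPM per kilobase in vehicle input. This rank depends on its annotated exons, at 18313 bases the longest of the module. In CPM it was not lowest, with 33.8 ± 20.4 in vehicle input against 16.1 ± 4.75 for Cd68.

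**Figure D1:**
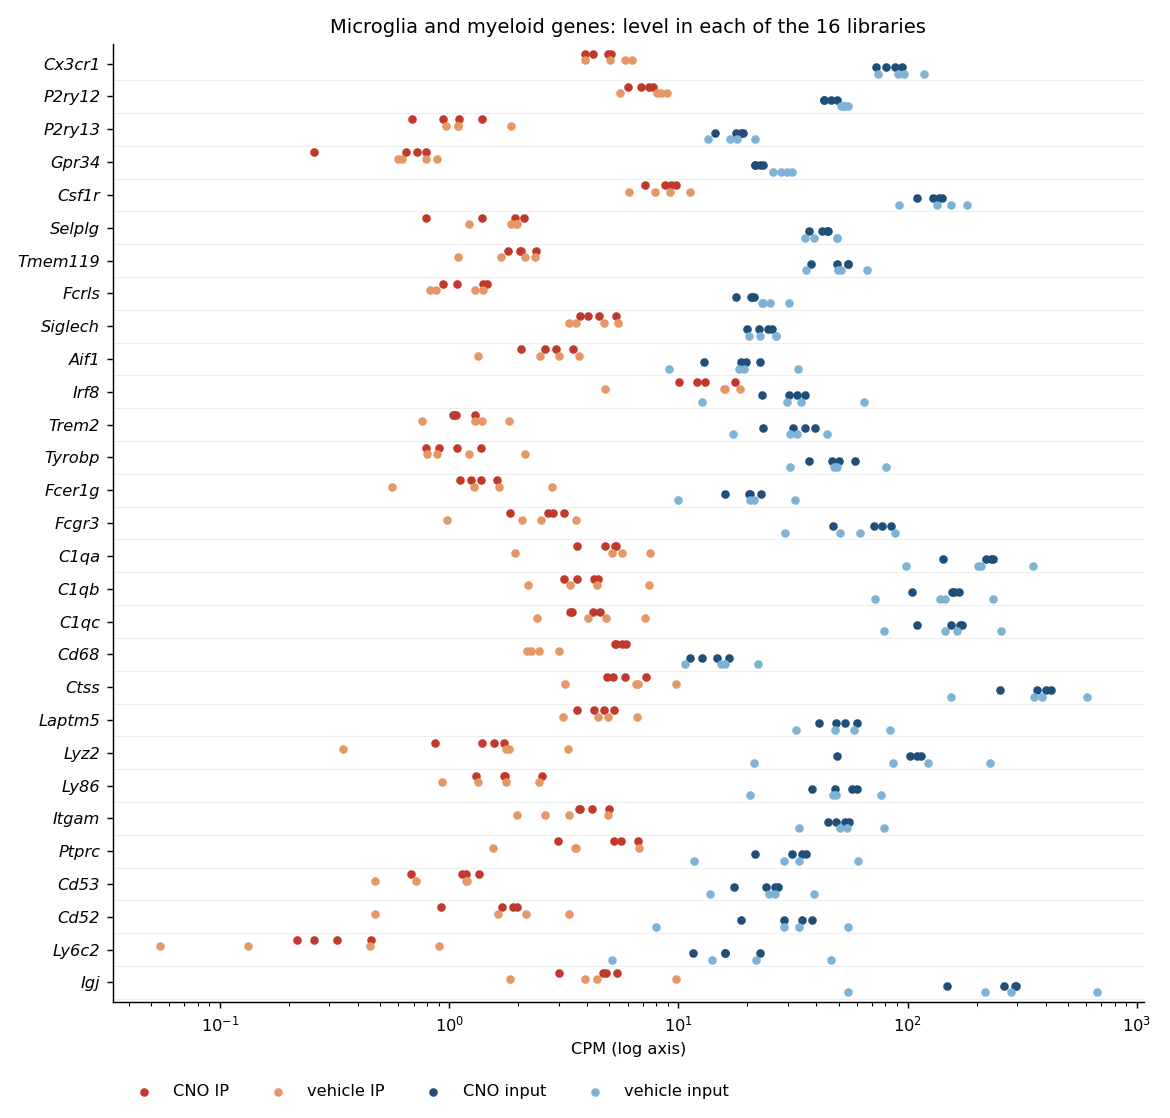
Level of each of the 29 genes in the 16 libraries, as CPM on a log axis. Each point is a library, coloured by group. IP libraries (red and orange) lie left of the input libraries (blue) of the same injection for every gene, apart from Irf8 in vehicle mice, where the lowest input library (12.7 CPM) lies below 3 of the 4 vehicle IP libraries.

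The comparison of IP with input asks which RNAs the ribosome capture left behind. Microglia and myeloid RNAs were nearly all left behind: 29 of 29 members were lower in IP in CNO mice, and 28 of 29 in vehicle mice, by limma at an adjusted p under 0.05. Of all genes tested, 35.0% were lower in CNO mice and 37.2% in vehicle mice. Without vehicle mice 3 and 5, the lowest and the highest for most members, 29 of 29 were lower in vehicle mice. These fits, and the SE printed below, did not pair IP with the input of the same mouse. With the mouse as a block, Irf8, which had not passed in vehicle mice, passed (limma adjusted p = 8.68e-05). In vehicle mice the SE of C1qa was 0.51 without the block and 0.08 with it, and that of Ly6c2 was 0.96 and 0.21. No member was higher, against 40.0% of all genes in CNO mice and 37.7% in vehicle mice. The median log2 ratio of the members was -4.47 in CNO mice and -4.56 in vehicle mice, while the median over all genes tested was 0.04 in CNO mice and 0.01 in vehicle mice. In each mouse the summed CPM of the module in IP was 3.88 to 5.33% of that in its input. The low ratios of Ly6c2, Lyz2, Ctss, C1qa, Tyrobp and Igj were already known from an earlier account of these data and are no independent support. As bulk RNA, these values cannot tell fewer cells of a type from less RNA per cell.

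Receptors that sense the surroundings were 6 of 6 lower in IP in both injections. Cx3cr1, the receptor for the chemokine fractalkine, had 3.92, 4.26, 4.93 and 5.07 CPM in CNO IP and 6.27, 3.91, 5.02 and 5.83 CPM in vehicle IP. It had 73.1, 80.4, 94.8 and 88.4 CPM in CNO input and 96.3, 74.3, 90.6 and 118 CPM in vehicle input. All 8 IP libraries lay far below all 8 input libraries, with log2 ratios of -4.21 (SE 0.11, limma adjusted p = 7.77e-10) in CNO mice and -4.17 (SE 0.17, limma adjusted p = 7.43e-08) in vehicle mice.

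Csf1r, the receptor for the growth factors Csf1 and Il34 on which microglia depend, had 7.13, 9.81, 8.73 and 9.29 CPM in CNO IP and 9.24, 6.11, 7.91 and 11.2 CPM in vehicle IP. It had 110, 137, 142 and 129 CPM in CNO input and 154, 91.9, 134 and 181 CPM in vehicle input. Its IP share was 6.13 to 7.22% in CNO mice and 5.92 to 6.65% in vehicle mice, and its ratios were -3.89 in CNO mice and -4.02 in vehicle mice. Hmgxb3 shares 873 of the 5774 exon bases of Csf1r, and the strand setting of the counting is not given in the sources used here.

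P2ry12, the ADP receptor of microglial processes, had 6.03, 7.43, 7.78 and 6.9 CPM in CNO IP and 8.38, 5.55, 8.95 and 8.04 CPM in vehicle IP. It had 43.2, 43.4, 49 and 46.2 CPM in CNO input and 52.8, 51.1, 53 and 55.2 CPM in vehicle input. Its IP share was among the larger ones, 13.9 to 17.1% in CNO mice and 10.9 to 16.9% in vehicle mice, and its log2 ratio was -2.70 (SE 0.09, limma adjusted p = 2.52e-09) in CNO mice and -2.80 (SE 0.13, limma adjusted p = 1.08e-07) in vehicle mice. Gpr34, a receptor for lysophosphatidylserine, had the lowest ratios of the receptors, -5.31 in CNO mice and -5.32 in vehicle mice. The nucleotide receptor P2ry13 and Selplg, the ligand of selectins, had shares between 1.76 and 9.55% over the 8 mice.

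Genes grouped here by microglial or myeloid identity (Tmem119, Fcrls, Siglech, Aif1 and Irf8) were 5 of 5 lower in CNO mice and 4 of 5 in vehicle mice. Tmem119, a surface protein of microglia, had 2.39, 2.06, 1.8 and 2.03 CPM in CNO IP and 2.14, 1.09, 1.69 and 2.36 CPM in vehicle IP. It had 37.9, 55, 54.9 and 49.2 CPM in CNO input and 51.2, 35.9, 49.5 and 66.5 CPM in vehicle input. Its groups were far apart, with ratios of -4.56 in CNO mice and -4.82 in vehicle mice.

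Irf8, a transcription factor of the myeloid lineage, had the largest mean IP share of the module, 34 to 53.6% in CNO mice and 28.9 to 53% in vehicle mice. It had 10.1, 17.6, 12.1 and 13.1 CPM in CNO IP and 16, 4.78, 15.8 and 18.6 CPM in vehicle IP. It had 23.1, 32.9, 35.6 and 30.3 CPM in CNO input and 34.2, 12.7, 29.8 and 64.3 CPM in vehicle input. IP and input overlapped in vehicle mice and did not in CNO mice. The log2 ratio was -1.21 (SE 0.18, limma adjusted p = 0.000177) in CNO mice and -1.30 (SE 0.59, limma adjusted p = 0.0759) in vehicle mice; the vehicle value did not pass. With the mouse as a block it passed at the same size, -1.30 (limma adjusted p = 8.68e-05), and without vehicle mice 3 and 5 it was -1.01 (limma adjusted p = 1.66e-05). Mice 3 and 5 held the lowest and the highest vehicle value of Irf8 in both fractions, so the fit without them understates its spread.

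Siglech, a sialic acid-binding receptor, had 3.71, 5.32, 4.03 and 4.52 CPM in CNO IP and 5.48, 3.33, 3.57 and 4.75 CPM in vehicle IP. It had 22.5, 25.7, 24.7 and 19.9 CPM in CNO input and 26.6, 20.4, 22.8 and 26.8 CPM in vehicle input. Its IP share was 16.3 to 22.7% in CNO mice and 15.7 to 20.6% in vehicle mice, and its ratios of -2.41 in CNO mice and -2.51 in vehicle mice both passed. Aif1, the calcium-binding protein Iba1 by which microglia are stained, had shares of 13.2 to 15.9% in CNO mice and 11.2 to 16.3% in vehicle mice. Fcrls, an Fc receptor-like protein, had 5.22 to 6.99% in CNO mice and 3.48 to 6.08% in vehicle mice.

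**Figure D2:**
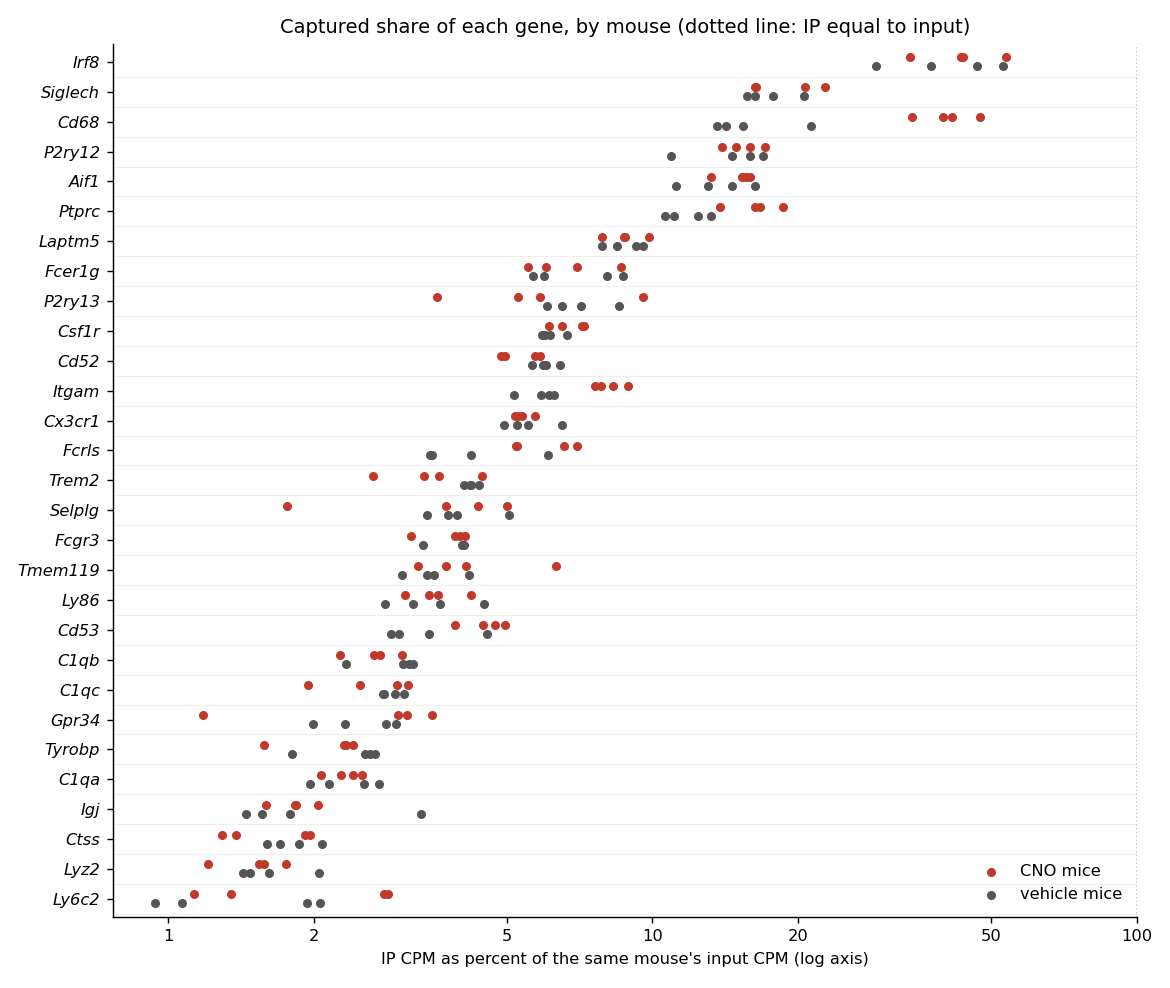
CPM in IP as a percent of the CPM in the input of the same mouse, on a log axis, for each gene and each of the 8 mice (CNO mice red, vehicle mice grey), with genes ordered by the mean of vehicle mice. Shares ran from about 1% for Ly6c2 to 53.6% for Irf8, and for Cd68 the 4 CNO mice (34.4 to 47.5%) lay above the 4 vehicle mice (13.6 to 21.3%).

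Trem2, the Fc receptor Fcgr3 and the adaptors Tyrobp and Fcer1g were 4 of 4 lower in IP in both injections. Trem2 had 1.04, 1.29, 1.05 and 1.07 CPM in CNO IP and 1.3, 0.764, 1.39 and 1.82 CPM in vehicle IP. It had 23.5, 35.6, 39.6 and 31.5 CPM in CNO input and 30.8, 17.4, 32.9 and 44.5 CPM in vehicle input. The log2 ratio was -4.84 in CNO mice and -4.56 in vehicle mice, and no library of IP reached any of input.

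Tyrobp, the adaptor of Trem2, had 0.9, 1.37, 0.793 and 1.08 CPM in CNO IP and 1.22, 0.8, 0.884 and 2.15 CPM in vehicle IP. It had 37.3, 58.9, 50.3 and 47 CPM in CNO input and 47.9, 30.7, 49.1 and 80.2 CPM in vehicle input. Its IP share, 1.58 to 2.41% in CNO mice and 1.8 to 2.68% in vehicle mice, was below that of the other adaptor Fcer1g, 5.54 to 8.6% in CNO mice and 5.68 to 8.71% in vehicle mice. Fcgr3 had shares of 3.18 to 4.1% in CNO mice and 3.36 to 4.09% in vehicle mice, and reads of its near copies Fcgr2b and Fcgr4 may be shared with it.

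The C1q genes lie side by side on chromosome 4 (136880129 to 136898803, GRCm38), within 18675 bases on the minus strand, and 3 of 3 were lower in IP in both injections. C1qa had 3.6, 5.36, 4.8 and 5.29 CPM in CNO IP and 5.69, 1.93, 5.15 and 7.54 CPM in vehicle IP. It had 143, 235, 232 and 220 CPM in CNO input and 209, 98.2, 203 and 351 CPM in vehicle input. C1qa had log2 ratios of -5.43 (SE 0.18, limma adjusted p = 1.04e-08) in CNO mice and -5.42 (SE 0.51, limma adjusted p = 2.6e-05) in vehicle mice.

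C1qb had 3.18, 4.47, 3.6 and 4.28 CPM in CNO IP and 3.38, 2.2, 4.42 and 7.47 CPM in vehicle IP. It had 105, 168, 160 and 156 CPM in CNO input and 145, 72, 138 and 237 CPM in vehicle input. Across mice it ran like C1qa, lowest in vehicle mouse 3 and highest in vehicle mouse 5 in both fractions. C1qc had 3.44, 4.24, 3.35 and 4.56 CPM in CNO IP and 4.83, 2.42, 4.04 and 7.12 CPM in vehicle IP. It had 110, 170, 172 and 154 CPM in CNO input and 164, 78.6, 146 and 255 CPM in vehicle input. The 3 genes kept IP shares between 1.95 and 3.20% in the 8 mice, and their ratios lay between -5.43 and -5.10.

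Lysosomal and phagocytic genes were 6 of 6 lower in IP in both injections but spread widely, with log2 ratios from -6.04 to -1.30 in CNO mice and from -5.93 to -2.65 in vehicle mice. Ctss (chromosome 3, 95526786 to 95556403, plus strand), a protease that trims the chain bound to MHC class II, had 4.88, 5.83, 5.17 and 7.22 CPM in CNO IP and 6.55, 3.2, 6.66 and 9.72 CPM in vehicle IP. It had 254, 423, 400 and 368 CPM in CNO input and 386, 154, 357 and 606 CPM in vehicle input. The ratio was -5.96 in CNO mice and -5.79 in vehicle mice, with no overlap.

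Lyz2, the lysozyme of macrophages, had 0.864, 1.57, 1.39 and 1.74 CPM in CNO IP and 1.77, 0.345, 1.82 and 3.29 CPM in vehicle IP. It had 49.2, 102, 115 and 110 CPM in CNO input and 86.2, 21.3, 123 and 230 CPM in vehicle input. Its ratio was -6.04 in CNO mice and -5.93 in vehicle mice. Its near copy Lyz1 had at most 1 read in an IP library and 2 to 7 reads in an input library, and how the counting split reads between them is not given in the sources used here. The lysosomal membrane protein Laptm5 had shares of 7.87 to 9.83% in CNO mice and 7.86 to 9.58% in vehicle mice, Ly86, the partner of the receptor Cd180, 3.08 to 4.22% in CNO mice and 2.81 to 4.5% in vehicle mice, and the integrin subunit Itgam 7.61 to 8.92% in CNO mice and 5.19 to 6.25% in vehicle mice. Of the 5024 exon bases of Itgam, 3450 are shared with the gene model Gm49368 on the same strand.

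Surface genes of leukocytes in general were 4 of 4 lower in both injections. Ly6c2, a surface protein of inflammatory monocytes, had 0.324, 0.216, 0.257 and 0.454 CPM in CNO IP and 0.451, 0.0546, 0.132 and 0.902 CPM in vehicle IP. It had 11.6, 16, 22.8 and 16 CPM in CNO input and 21.9, 5.11, 14 and 46.4 CPM in vehicle input. These are 11 to 23 reads in CNO IP and 3 to 49 reads in vehicle IP, so its ratios of -5.72 (SE 0.26, limma adjusted p = 2.24e-08) in CNO mice and -6.09 (SE 0.96, limma adjusted p = 0.000494) in vehicle mice depend on the prior count. With a prior count of 2 the vehicle ratio was -5.80. The near copy Ly6c1, a gene of brain endothelium, had 1.58 to 2.80 CPM in CNO IP, 1.27 to 4.66 in vehicle IP, 17.5 to 20.7 in CNO input and 18.7 to 22.6 in vehicle input. Ptprc had shares of 13.8 to 18.6% in CNO mice and 10.6 to 13.2% in vehicle mice, Cd53 of 3.91 to 4.97% in CNO mice and 2.89 to 4.56% in vehicle mice and Cd52 of 4.88 to 5.86% in CNO mice and 5.64 to 6.45% in vehicle mice.

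Igj had 3.02, 4.83, 4.7 and 5.42 CPM in CNO IP and 4.43, 1.84, 3.91 and 9.72 CPM in vehicle IP. It had 148, 264, 296 and 295 CPM in CNO input and 283, 55.1, 218 and 669 CPM in vehicle input. Input varied 12.1-fold between vehicle mice, and the IP share stayed between 1.45 and 3.33% in all 8 mice. Ratios were -5.78 in CNO mice and -5.70 in vehicle mice. Mzb1, a chaperone of antibody-secreting cells, had 7.51, 14.6, 9.88 and 8.74 CPM in CNO input and 11.6, 2.68, 9.52 and 29 CPM in vehicle input. Like Igj it was lowest in vehicle mouse 3 and highest in vehicle mouse 5, but in CNO input it was highest in mouse 3, where Igj was not. Of 22 B and plasma cell markers, 14 were measured, and their sum was 184 to 221 CPM in CNO input and 142 to 298 CPM in vehicle input. The part of such cells in the Igj level was not tested.

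The median member varied more between mice than the median gene. The median log2 SD of the members was 0.30 in CNO IP, 0.64 in vehicle IP, 0.27 in CNO input and 0.63 in vehicle input, while the median over genes with a mean of at least 100 reads was 0.10 in CNO IP, 0.11 in vehicle IP, 0.12 in CNO input and 0.10 in vehicle input. Members above the 95th percentile of those genes numbered 10 in CNO IP, 19 in vehicle IP, 3 in CNO input and 19 in vehicle input. Those genes were not matched to the members in level. Several members had few reads in IP, such as Ly6c2 with 3 to 49 in vehicle IP, and the part of counting noise in their spread was not tested. Summed CPM of the module was 1550, 2350, 2400 and 2230 in CNO input and 2270, 1100, 2120 and 3730 in vehicle input. Vehicle mouse 3 was the lowest vehicle input library for 28 of 29 members and vehicle mouse 5 the highest for 28 of 29, against 19.7% and 32.6% of all such genes. Among CNO input libraries, mouse 2 was the lowest for 27 of 29 members, against 41.9% of genes.

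The spread was unequal within the module. P2ry12 varied least in vehicle input (log2 SD 0.05) and Igj most (1.49). Between the highest and the lowest vehicle input library, the receptor group varied 1.56-fold in summed CPM, the identity group 2.14-fold, the Trem2 and Fc group 2.81-fold, the C1q group 3.39-fold, the lysosomal group 4.02-fold and the leukocyte surface group 5.25-fold. The interferon and MHC genes varied 5.08-fold with the same lowest and highest mouse, 24 T and NK cell markers 2.48-fold, and 12 monocyte and granulocyte markers 2.22-fold. No measured gene of those 3 lists was at 0 in any input library. Among 14 B and plasma cell markers the sum varied 2.10-fold, also lowest in mouse 3 and highest in mouse 5. Sums follow their most abundant genes. The median log2 deviation from the vehicle input mean, in mice 3 and 5, was -1.49 and 0.93 for T and NK cell markers. It was -1.32 and 1.08 for B and plasma cell markers and -0.88 and 0.76 for monocyte and granulocyte markers. For interferon and MHC genes it was -1.16 and 1.09, and for the members -0.83 and 0.71. Astrocyte markers varied 1.10-fold and endothelial markers 1.20-fold in the same libraries. In IP the summed oligodendrocyte markers ran with the module, at 9400 to 12700 CPM in CNO IP and 7080 to 17000 CPM in vehicle IP, lowest in mouse 3 and highest in mouse 5 of the vehicle group. In vehicle input they did not, with sums of 7350, 7600, 6180 and 6180 CPM, highest in mouse 3. The part of other immune cells in the spread was not tested.

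**Figure D3:**
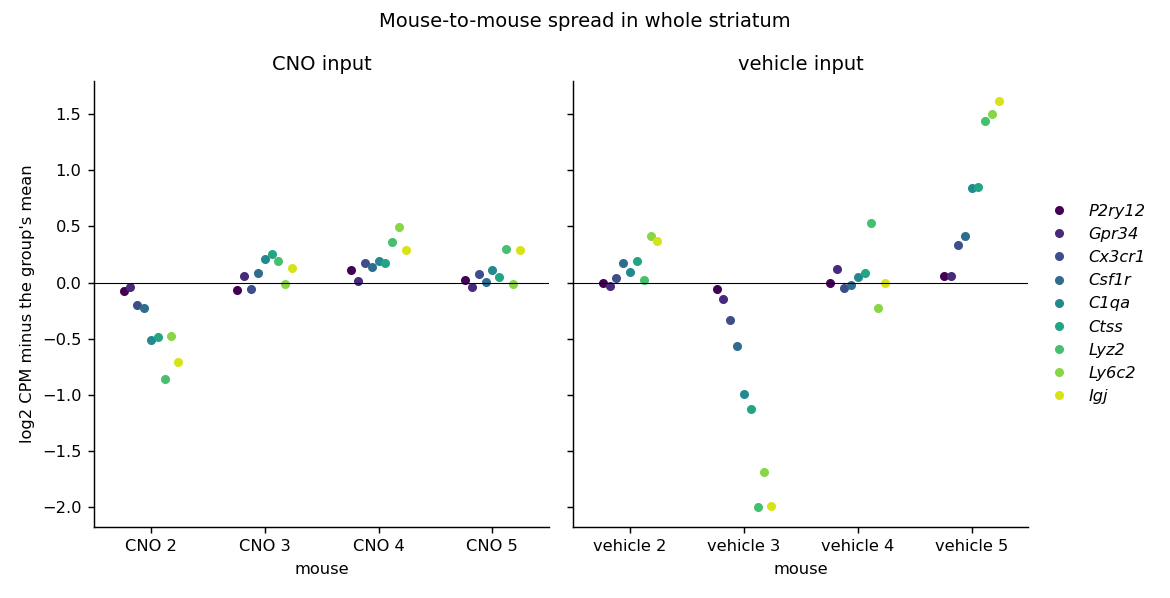
Input level of 9 members in each mouse, as log2 CPM minus the mean of the mouse's own injection group (left, CNO input; right, vehicle input), with points of a mouse set side by side in a fixed gene order. In vehicle mice 3 and 5 the genes fan out below and above 0, from P2ry12 near 0 to Lyz2, Ly6c2 and Igj farthest from 0.

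The comparison of CNO with vehicle in IP asks which captured RNAs changed with the injection. Of the 29 members, 1 rose, Cd68, and 0 fell, against 10.2% of all genes tested that rose and 7.08% that fell. The median log2 change of the members was 0.05, and -0.01 over all genes tested. Apart from Cd68 the members' estimates ran from -0.36 (Gpr34) to 0.53 (Ptprc). Over all 29 members the SE ran from 0.12 (Cd68) to 0.78 (Ly6c2), with a median of 0.31 against 0.09 over all genes. By an unadjusted limma p under 0.05, 1 member was counted as well, against 29.6% of all genes. At 2-fold or more, 1 member rose against 2.44% of all genes, and 0 fell against 0.320%.

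Cd68 (chromosome 11, 69664213 to 69666153, minus strand, GRCm38) encodes a heavily glycosylated protein of the lysosome membrane of macrophages. It had 5.34, 5.28, 5.7 and 5.9 CPM in CNO IP and 2.46, 2.27, 2.18 and 3.02 CPM in vehicle IP. The 4 CNO IP libraries lay above the 4 vehicle IP libraries, with 266 to 299 reads in CNO IP and 116 to 164 reads in vehicle IP. In whole tissue it had 11.2, 12.7, 16.6 and 14.8 CPM in CNO input and 16, 10.7, 15.4 and 22.2 CPM in vehicle input, and these groups overlapped. The log2 change was 1.17 (SE 0.12, limma adjusted p = 0.000179) in IP and -0.18 (SE 0.21, limma adjusted p = 0.863) in input. Without vehicle mice 3 and 5 the change in IP was 1.26 (limma adjusted p = 0.000286).

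The share of Cd68 in IP was 34.4 to 47.5% in CNO mice and 13.6 to 21.3% in vehicle mice, and its log2 CNO effect was larger in IP than in input by 1.35 (SE 0.25, limma adjusted p = 0.0034). The share was higher in 4 of 4 CNO mice than in any vehicle mouse. Of all genes tested, 4.18% were higher and 0.572% lower in this contrast, while of the members 1 was higher and 0 lower. At 2-fold or more these backgrounds were 1.05% and 0.0246%. Eif4a1, the RNA helicase of translation initiation, lies 782 bases upstream of Cd68 on the same strand. It had 67.1, 65.8, 70.3 and 65.4 CPM in CNO IP and 46, 46.4, 46.3 and 49.9 CPM in vehicle IP, a log2 rise of 0.51 (SE 0.04, limma adjusted p = 5.34e-05). Its CNO effect was larger in IP than in input by 0.47 (SE 0.08, limma adjusted p = 0.00142). Mpdu1, 1570 bases from Cd68 on its other side, had 33.4, 31.6, 30.8 and 29.3 CPM in CNO IP and 34.1, 33.7, 35.2 and 34 CPM in vehicle IP, a log2 value of -0.13 (SE 0.05, limma adjusted p = 0.099). Whether reads beyond the end of Eif4a1 were assigned to Cd68 was not tested.

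With the mouse as a block, 3 members were higher in this contrast: Cd68 at 1.35 (limma adjusted p = 0.000116), Itgam at 0.48 (limma adjusted p = 0.00689) and Ptprc at 0.46 (limma adjusted p = 0.0305). With that block 6.26% of all genes tested were higher. The IP share of Itgam was 7.61 to 8.92% in CNO mice and 5.19 to 6.25% in vehicle mice, and that of Ptprc 13.8 to 18.6% in CNO mice and 10.6 to 13.2% in vehicle mice, in each case without overlap. With Cd68 these were 3 of 29 members whose share in all CNO mice lay above that in all vehicle mice, which held for 10% of all genes (1626 of 16246). In IP alone Itgam was 0.44 (SE 0.26, limma adjusted p = 0.307). It passed there only without vehicle IP replicate 5, at 0.67 (limma adjusted p = 0.0435).

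**Figure D4:**
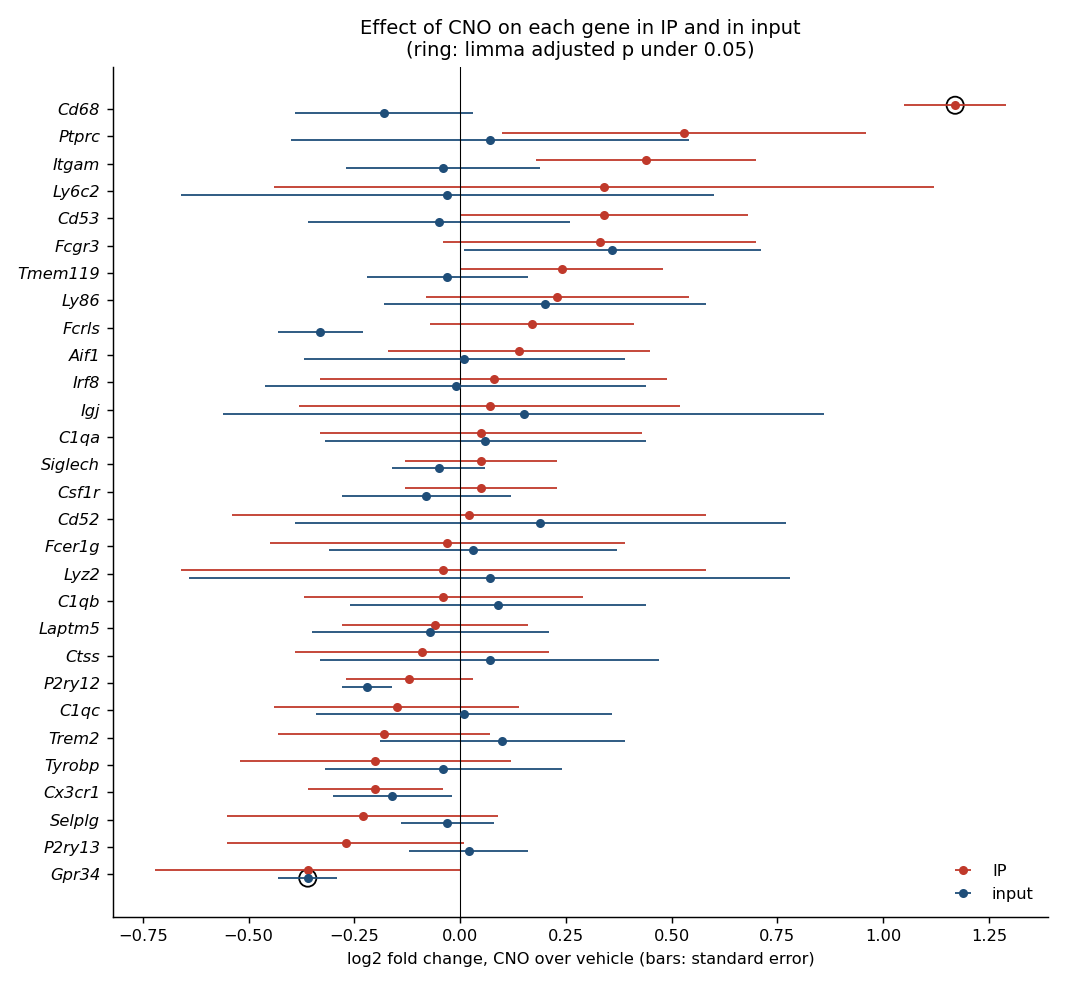
Log2 fold change, CNO over vehicle, of each member in IP (red) and in input (blue), with bars of 1 SE on each side, 4 libraries per group. Rings mark a limma adjusted p under 0.05: Cd68 in IP at 1.17 and Gpr34 in input at -0.36, with the other estimates between -0.36 and 0.53.

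Whole striatum held few differences of the module between injections. In input 0 of 29 members rose and 1 fell, Gpr34, against 0.815% of all genes tested that rose and 0.183% that fell. At 2-fold or more, 0 members rose or fell, against 0.373% of all genes that rose and 0 that fell. The median log2 change of the members was -0.01, and -0.02 over all genes. Gpr34 (chromosome X, 13632089 to 13640858, plus strand) had 21.7, 23.3, 22.6 and 21.7 CPM in CNO input and 28, 25.9, 31.2 and 29.8 CPM in vehicle input. The groups did not overlap, and the log2 change was -0.36 (SE 0.07, limma adjusted p = 0.0429). This call was lost with limma-voom (adjusted p = 0.0913) and when any of 7 of the 8 input libraries was left out, at limma adjusted p of 0.0895 to 0.145. It held only without vehicle input replicate 3, at limma adjusted p = 0.0284. Without vehicle mice 3 and 5 it was -0.40 (limma adjusted p = 0.0951). Gpr34 lies in an intron of Cask on the opposite strand. In IP it had 0.648, 0.726, 0.793 and 0.256 CPM in CNO IP and 0.789, 0.6, 0.62 and 0.883 CPM in vehicle IP, which overlapped.

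CNO input lay below vehicle input without overlap for 2 further members, which did not pass. With Gpr34 these were 3 of 29 members, against 4.03% of all genes tested. P2ry12 was at -0.22 (SE 0.06, limma adjusted p = 0.143). Fcrls had 20.7, 17.9, 20.9 and 21.3 CPM in CNO input and 23.2, 25.1, 23.5 and 30.5 CPM in vehicle input, a log2 value of -0.33 (SE 0.10, limma adjusted p = 0.22). By unadjusted limma p under 0.05, 3 of 29 members were counted in input, against 10.1% of all genes. The estimates of the other members in input ran from -0.18 (Cd68) to 0.36 (Fcgr3), with SE up to 0.71 (Lyz2).

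Other genes of these pathways were read from lists of markers and partners. Of 63 further microglial genes, 57 were lower and 2 higher in IP than in input in CNO mice, and likewise 57 and 2 in vehicle mice. In both the 2 higher were the transcription factor Sall1 and the integrin subunit Itgb5. Spi1, the PU.1 factor, had 0.306, 0.53, 0.279 and 0.454 CPM in CNO IP and 0.488, 0.218, 0.414 and 0.515 CPM in vehicle IP. It had 4.81, 7.79, 10.7 and 8.29 CPM in CNO input and 8.18, 4.08, 8.91 and 14.4 CPM in vehicle input, with log2 ratios of -4.31 in CNO mice and -4.36 in vehicle mice.

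Between injections in IP, 2 of 61 tested genes of this microglial list rose, 1 fell and 58 did not pass, and in input 0 of 63 passed. Of all genes tested, 10.2% rose and 7.08% fell in IP, and 0.815% rose and 0.183% fell in input. P2ry6, a receptor for UDP, had 4.1, 2.9, 3.95 and 5.35 CPM in CNO IP and 0.939, 0.946, 0.696 and 1.03 CPM in vehicle IP. CNO IP lay above vehicle IP without overlap, a log2 rise of 2.15 (SE 0.21, limma adjusted p = 0.000116). In input it had 3.82, 5.25, 4.93 and 5.44 CPM in CNO input and 3.8, 2.04, 3.35 and 5.19 CPM in vehicle input, and these overlapped. Its CNO effect was larger in IP than in input by 1.65 (SE 0.35, limma adjusted p = 0.00895). Its IP share was 55.3 to 107% in CNO mice and 19.9 to 46.3% in vehicle mice. Runx1, a transcription factor of blood cells, rose by 1.27 in IP (limma adjusted p = 0.0259), and Itgb5 fell by 0.45 (limma adjusted p = 0.000569). For neither did the CNO effect in IP minus that in input pass. It was 0.31 for Runx1 (SE 0.52, limma adjusted p = 0.918) and -0.37 for Itgb5 (SE 0.2, limma adjusted p = 0.443). The Runx1 call was lost without any of 4 of the 8 IP libraries, at adjusted p of 0.0532 to 0.0722.

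Partners and ligands of the module were captured unequally. Csf1 had 79.5, 110, 108 and 97.5 CPM in CNO IP and 96.2, 58.7, 95.6 and 125 CPM in vehicle IP. It had 25.6, 24.6, 28.3 and 24.3 CPM in CNO input and 24.8, 20.4, 23.6 and 33.7 CPM in vehicle input, so that it was higher in IP by 1.93 on the log2 scale in CNO mice and 1.85 in vehicle mice. The other Csf1r ligand, Il34, was lower in IP, at a log2 ratio of -1.50 in CNO and in vehicle mice, and so was the Cx3cr1 ligand Cx3cl1, at -0.59 in CNO mice and -0.75 in vehicle mice. Tgfb2 was higher (1.34 in CNO mice and 1.43 in vehicle mice) and Tgfb1 lower (-1.33 in CNO mice and -1.69 in vehicle mice). Cd200 and Cd47, which restrain microglia, did not pass, with values between -0.12 and 0.06, except that Cd47 in CNO mice (-0.12) passed with the mouse as a block (limma adjusted p = 0.0371). C3, the complement protein that follows C1q, was at 1.44 in CNO mice (limma adjusted p = 0.000171) and 1.71 in vehicle mice (limma adjusted p = 0.0554), where it passed with the mouse as a block (limma adjusted p = 0.0113). None of these 8 ligands and partners passed between CNO and vehicle in IP or in input.

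Of 25 tested ligands of microglia in IP, 7 rose with CNO, 1 fell and 17 did not pass, where 10.2% of all genes rose and 7.08% fell. Those that rose at least 2-fold were the cytokines Il6 and Lif and the chemokines Cxcl1, Ccl7, Ccl2 and Ccl12. Ccl7 had 8.78, 10.5, 9.86 and 12.1 CPM in CNO IP and 0.789, 0.4, 0.376 and 3.07 CPM in vehicle IP, a log2 rise of 3.71 (SE 0.60, limma adjusted p = 0.00343). Lif rose by 2.21 (limma adjusted p = 1.65e-06). Il6 had 4.93, 3.39, 3.24 and 6.88 CPM in CNO IP and 0.131, 0.0546, 0 and 0.0552 CPM in vehicle IP, the vehicle values resting on 0 to 7 reads per library. Log2 rises in IP were 5.09 for Cxcl1, 2.49 for Ccl2 and 1.17 for Ccl12. In input 3 of 28 rose, against 0.815% of all genes: Il6 by 3.13, Cxcl1 by 2.46 and Lif by 1.88. Without vehicle input replicate 5, 3 more chemokines passed in input. They were Ccl7 at 2.68 (limma adjusted p = 0.012), Ccl2 at 1.95 (limma adjusted p = 0.0354) and Ccl12 at 1.92 (limma adjusted p = 0.0437). Without vehicle mice 3 and 5, Ccl7 passed in input at 2.21 (limma adjusted p = 0.00652). Of 30 activation genes in IP, 6 rose and 0 fell, beside the same 10.2% and 7.08% of all genes. They were Socs3, Nfkbiz, Cd14, Ptgs2, Ccl2 and Ccl12, of which Socs3 was largest at 5.34 (limma adjusted p = 1.98e-05). Nfkbiz rose by 1.59, Cd14 by 1.57 and Ptgs2 by 1.31. In input 1 of 34 rose, Socs3 by 3.39, beside the same 0.815% of all genes. Calls of Cxcl1, Ccl2, Ccl12, Cd14 and Ptgs2 in IP were each lost without at least 1 of the libraries, and that of Ptgs2 also without vehicle mice 3 and 5 (limma adjusted p = 0.074). In IP 1 gene each rose among 10 monocyte and granulocyte markers (Fn1, 1.02), 10 B and plasma cell markers (Xbp1, 1.06) and 32 interferon and MHC genes (Rsad2, 1.07), while 10.2% of all genes rose. None of 11 T and NK cell markers and none of 18 genes of Trem2 and Fc adaptor signalling passed in IP. The near copies Ly6c1 and Fcgr4 were lower in IP than in input, with log2 ratios of -3.17 for Ly6c1 and -4.20 for Fcgr4 in CNO mice and -3.21 for Ly6c1 and -4.94 for Fcgr4 in vehicle mice. Fcgr2b was lower in CNO mice (-1.64) and at -1.71 in vehicle mice (limma adjusted p = 0.0985, and 1.09e-05 with the mouse as a block). None of these 3 passed between CNO and vehicle in IP or in input, and Lyz1 had too few reads to be tested.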

How the data were processed

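The deposited values are log2 CPM values (read counts scaled to library size) per gene and library, made by the authors with a prior count of 0.25 (from the values). The submitters' processing notes name bcl2fastq 2.17, STAR, HTSeq, limma and build mm10. The role of each tool, the strandedness and the gene annotation are stated in neither the labels nor the files. Per the labels' protocols, an amplifying, mRNA-enriching kit was used on 100 ng of RNA per library. Whole reads were recovered from all values (100%, within 0.01 read), and CPM as printed are these reads over the normalized library size that the authors' values carry (0.88 to 0.932 of the reads in IP, 1.08 to 1.14 in input). The 17097 genes exclude 1 repeated line; 2 further lines had ambiguous names. IP share is the CPM in IP over that in the input of the same mouse.

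Tests were limma 3.58.1 in R 4.3.3 (trended and robust variance) on the deposited log2 values, with Benjamini-Hochberg adjustment over all genes tested and a threshold of 0.05. A gene was tested if its reads summed to 15 or more and 4 or more libraries reached the CPM that 10 reads give in the median library. The code was tested on simulated data. The contrast of CNO effects used all 16 libraries and the others only their own groups. The main fits held no term for the mouse. IP and input libraries with the same mouse code come from the same animal, and their deviations from the group means correlated at r = 0.31 to 0.70, so the fit with the mouse as a block is printed beside a value of the report where it changed the call of that value.

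Members and gene lists were chosen with earlier results of these data known. Named were a set of members chosen by role, the 3 members with the highest and the 3 with the lowest IP to input ratio in vehicle mice, members that passed with CNO, list genes that passed with a log2 change of at least 1, set ligands, Spi1 and near copies. Itgb5, Mzb1, Eif4a1, Mpdu1 and Hmgxb3 were named after their values were seen. Alternatives were no filter, upper quartile scaling, limma-voom on the recovered reads, a prior count of 2, a block and leaving out each library. The block was the mouse for IP against input and for the contrast of CNO effects. For CNO against vehicle it was the replicate number. Leaving out vehicle mice 3 and 5 was chosen after seeing the data. Gene positions are from GENCODE vM21 (GRCm38) and promoters from RefSeq (GRCm38.p6). Replicates differed by more than sampling noise.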

Additional observations from a re-analysis of the deposited data

Results flagged for a closer look

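For each member and each group of 4 libraries, the gap between the highest or lowest library and its nearest neighbour was set against the range of the group on the log2 scale. The gap passed the critical value of Dixon's test for 4 values in 7 of 116 groups, and chance alone flags about 1 in 20. In CNO input replicate 2 was set apart as the lowest library for 4 members. There C1qa was at 143 CPM (others 220 to 235), C1qb at 105 CPM (others 156 to 168), Lyz2 at 49.2 CPM (others 102 to 115) and Igj at 148 CPM (others 264 to 296). In vehicle IP replicate 3 was the lowest library for Irf8, at 4.78 CPM (others 15.8 to 18.6), and for Selplg, at 1.22 CPM (others 1.86 to 1.97). In CNO IP replicate 3 was the highest for Trem2, at 1.29 CPM (others 1.04 to 1.07).

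The CNO effect on Cd68 differed between IP and input. It was larger in IP by 1.35 on the log2 scale (SE 0.25, limma adjusted p = 0.0034), and the IP share was higher in 4 of 4 CNO mice than in any vehicle mouse.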

How the results depend on the processing

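Of the members and named genes, no value that passed, with or without an alternative, changed sign between them. The number of members lower in IP than in input stayed at 29 in CNO mice and 28 to 29 in vehicle mice. With CNO in IP, 1 member was higher, and 1 to 2 when a library was left out (2 without vehicle IP replicate 5, which adds Itgam). All genes lower there numbered 1104, against 1978 with upper quartile scaling, 717 with the replicate block and 594 to 1204 without 1 library. In input, 1 member was lower, against 0 with limma-voom, 0 with the replicate block, 0 without vehicle mice 3 and 5, and 0 to 1 without 1 library. All genes lower there numbered 29, against 7 with the replicate block, 5 without those mice and 4 to 27 without 1 library. In the contrast of CNO effects, 1 member was higher, against 3 with the mouse as a block. All genes lower there numbered 93, against 201 with upper quartile scaling, 222 with the block, 30 without vehicle mice 3 and 5 and 43 to 109 without 1 library, while all genes higher numbered 680, against 440 without those mice. The check of single libraries set apart 7 groups, and 4 on the CPM scale. Scaling to the upper quartile moved the median IP to input ratio of all genes by -0.22 in CNO mice and -0.16 in vehicle mice. Among all calls, those in the higher direction then made up 39.8% against 53.3% in CNO mice and 40.6% against 50.3% in vehicle mice, 38.8% against 59.2% for CNO in IP, and 72.7% against 88% in the contrast of CNO effects, so that calls over all genes were then mostly lower in the first 3 of these. The causes were not tested. CNO and vehicle libraries with the same number deviated together at r = -0.54 to 0.22, so these numbers do not pair mice. With the replicate block Cd68 in IP kept 1.17 (limma adjusted p = 0.00212). Of the single-gene values under alternatives, 4500 kept their sign and their side of the threshold, 91 no longer passed, 58 newly passed and 328 that passed in neither fit changed sign. Depth limits Ly6c2 most, with 3 to 49 reads in vehicle IP.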
